A study of Mus musculus with 12 samples.

Results

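The 10 germline genes outside the Magea family, Asz1, Taf7l, Dazl, Ddx4, Mael, Sycp1, Sycp3, Stk31, Tex101 and Tdrd1, were followed as a group in embryonic stem cells with and without Pcbp1. They were chosen by symbol, as genes known from other work to be silenced by promoter DNA methylation, and make up 10 of the 55487 genes in the table of counts. No value of these libraries entered the choice, but the choice was made with earlier results of these data known. DNA methylation itself was not measured here.

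RNA was sequenced from 12 cultures of E14 Tg2a mouse embryonic stem cells, in 4 groups of 3 libraries. Pcbp1 encodes a protein that binds C-rich RNA and DNA, and the study asked what its loss changes as naive cells turn into EpiLCs, epiblast-like cells that resemble the epiblast just after implantation. Each genotype was represented by 3 independently derived clones, with Pcbp1 knocked out (KO) or as controls, the latter named Scr in the series text and wild type (WT) in the sample labels. All cells were first adapted for 3 passages to serum-free N2B27 medium with LIF and the inhibitors PD0325901 (1 uM, against MEK) and CHIR99021 (3 uM, against GSK3). Naive libraries came from cells in that medium, and EpiLC libraries from cells held for 48 h in N2B27 with bFGF (12 ng/ml), activin A (20 ng/ml) and 1% KOSR, a serum replacement, on fibronectin. A p-value here measures the spread between cultures of these clones of a single line. In RNA from whole cultures, a change in the number of cells that express a gene and a change in RNA per cell cannot be told apart.

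In the mouse, genes of germ cell formation, meiosis and the piRNA pathway, which guards germ cells against transposons, often have CpG-rich promoters that become methylated in the epiblast at implantation and are demethylated again in primordial germ cells. In embryonic stem cells such genes are also held down by PRC1.6, a Polycomb complex that reaches E-box and E2F sites through MGA, MAX, PCGF6 and E2F6, and by the H3K9 methyltransferases SETDB1 and EHMT2 (G9a). Naive cells in medium with both inhibitors have low global DNA methylation, and the enzymes DNMT3A and DNMT3B rebuild it on the way to EpiLCs.

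Library totals ran from 27146744 to 42204511 counts. Pcbp1, the targeted gene, was at 456 ± 32.8 CPM (counts scaled to library size with TMM, mean ± SD, n = 3) in naive WT against 300.2 ± 4.25 in naive KO, and at 598 ± 90.3 in EpiLC WT against 272 ± 26.5 in EpiLC KO; the genotypes did not overlap in either condition, and Pcbp1 was still read in every KO library. Of 10 naive pluripotency markers 9 fell and of 10 formative markers 9 rose from naive to EpiLC in WT. In KO against WT no naive marker was called in either condition (edgeR; 0 in naive cells and 3 in EpiLCs at an unadjusted p under 0.05), 1 formative marker and 1 of 6 shared pluripotency markers were higher in naive KO, and none of either list was called in EpiLCs (0 and 1 at an unadjusted p under 0.05). EpiLC WT replicate 2 stood apart: its naive markers summed to 774 CPM against 236 and 233 in the other EpiLC WT libraries, and its formative markers to 3077 CPM against 5469 and 4938. Some results that involve EpiLC WT are therefore given with and without it.

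The 10 genes lie on 9 chromosomes of GRCm38, with Asz1 (18050964 to 18109061) and Stk31 (49395604 to 49469501) both on chromosome 6 and Taf7l (134460118 to 134476490) on X. Dazl is on chromosome 17 (50279395 to 50293636), Ddx4 on 13 (112598333 to 112652475), Mael on 1 (166201201 to 166238747) and Tdrd1 on 19 (56826209 to 56870012). Sycp1 is on chromosome 3 (102818499 to 102936100), Sycp3 on 10 (88459569 to 88473236) and Tex101 on 7 (24668007 to 24676675). Counts are summed over the exons of each gene. RefSeq promoter windows of the same build, from 250 bases before to 50 after the start, exist for all 10 genes, as 13 windows. At least 1 window of 9 of the 10 genes had GC of at least 50% and an observed to expected CpG ratio of at least 0.6. By window these were 11 of the 13, against 33.4% of the 32817 mouse windows of this length. Windows of the members held a median of 21 CpGs, against 7 over all windows. CACGTG, the palindromic E-box read by MAX and MGA, occurred in a window of 7 members. By window it occurred in 9 of the 13 and in 7.15% of all windows (11.5% of the CpG-rich windows). TCCCGC or its complement GCGGGA, an E2F type sequence, occurred in a window of 4 members. By window it occurred in 4 of the 13 and in 20.0% of all windows (45.3% of the CpG-rich windows). The motifs do not overlap each other, and a match is only a description of the letters.

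The 250 bases before the RefSeq start are printed, 5′ to 3′ on the gene's strand, for the 6 members with the largest changes below. Capitals mark matches to the E-box or to the E2F type sequence on either strand. The windows are chr6:18109062-18109311 (minus strand) for Asz1, chrX:134476491-134476740 (minus) for Taf7l, chr17:50293621-50293870 (minus) for Dazl, chr13:112652311-112652560 (minus) for Ddx4, chr1:166238745-166238994 (minus) for Mael and chr19:56825959-56826208 (plus) for Tdrd1.
Asz1: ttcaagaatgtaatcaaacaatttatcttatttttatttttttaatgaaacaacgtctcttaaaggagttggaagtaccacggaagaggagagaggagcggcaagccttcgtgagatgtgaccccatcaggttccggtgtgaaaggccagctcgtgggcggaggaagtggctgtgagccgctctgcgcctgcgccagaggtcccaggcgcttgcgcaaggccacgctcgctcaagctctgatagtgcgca
Taf7l: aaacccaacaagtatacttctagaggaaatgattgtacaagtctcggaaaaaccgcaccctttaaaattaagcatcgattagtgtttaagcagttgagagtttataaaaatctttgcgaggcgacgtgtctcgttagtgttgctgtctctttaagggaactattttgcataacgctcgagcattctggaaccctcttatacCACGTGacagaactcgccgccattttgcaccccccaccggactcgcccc
Dazl: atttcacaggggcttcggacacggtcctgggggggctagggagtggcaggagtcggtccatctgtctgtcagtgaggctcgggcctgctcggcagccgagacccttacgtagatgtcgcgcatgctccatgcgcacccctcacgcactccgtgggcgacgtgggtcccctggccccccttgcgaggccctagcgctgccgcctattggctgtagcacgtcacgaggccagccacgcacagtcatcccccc
Ddx4: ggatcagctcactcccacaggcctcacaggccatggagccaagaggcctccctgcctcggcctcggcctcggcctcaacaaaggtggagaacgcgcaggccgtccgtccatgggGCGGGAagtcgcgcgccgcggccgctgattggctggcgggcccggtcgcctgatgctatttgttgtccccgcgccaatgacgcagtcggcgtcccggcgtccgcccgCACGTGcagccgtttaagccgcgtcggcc
Mael: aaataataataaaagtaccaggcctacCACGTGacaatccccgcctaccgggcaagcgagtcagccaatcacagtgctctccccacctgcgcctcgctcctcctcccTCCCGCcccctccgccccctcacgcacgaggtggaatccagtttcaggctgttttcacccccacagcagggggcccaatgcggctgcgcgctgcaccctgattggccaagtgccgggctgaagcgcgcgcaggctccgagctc
Tdrd1: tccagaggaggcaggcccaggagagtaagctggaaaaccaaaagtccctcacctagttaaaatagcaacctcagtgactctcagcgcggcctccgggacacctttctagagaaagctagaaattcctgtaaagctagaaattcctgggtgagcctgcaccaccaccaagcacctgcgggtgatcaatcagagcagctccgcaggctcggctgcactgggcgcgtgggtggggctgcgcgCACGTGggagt
The E-box of Taf7l begins 49 bases before the start, that of Ddx4 29, that of Mael 223 and that of Tdrd1 11. Asz1 and Dazl hold neither motif in this window, which says only that these letters are not there. Of the members not printed, Stk31, Sycp1 and Sycp3 also hold an E-box, and none of them was called higher from naive cells to EpiLCs. Tex101 holds neither motif and was called higher from naive cells to EpiLCs in KO. Whether the motifs bear on the changes was not tested.

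**Figure D1:**
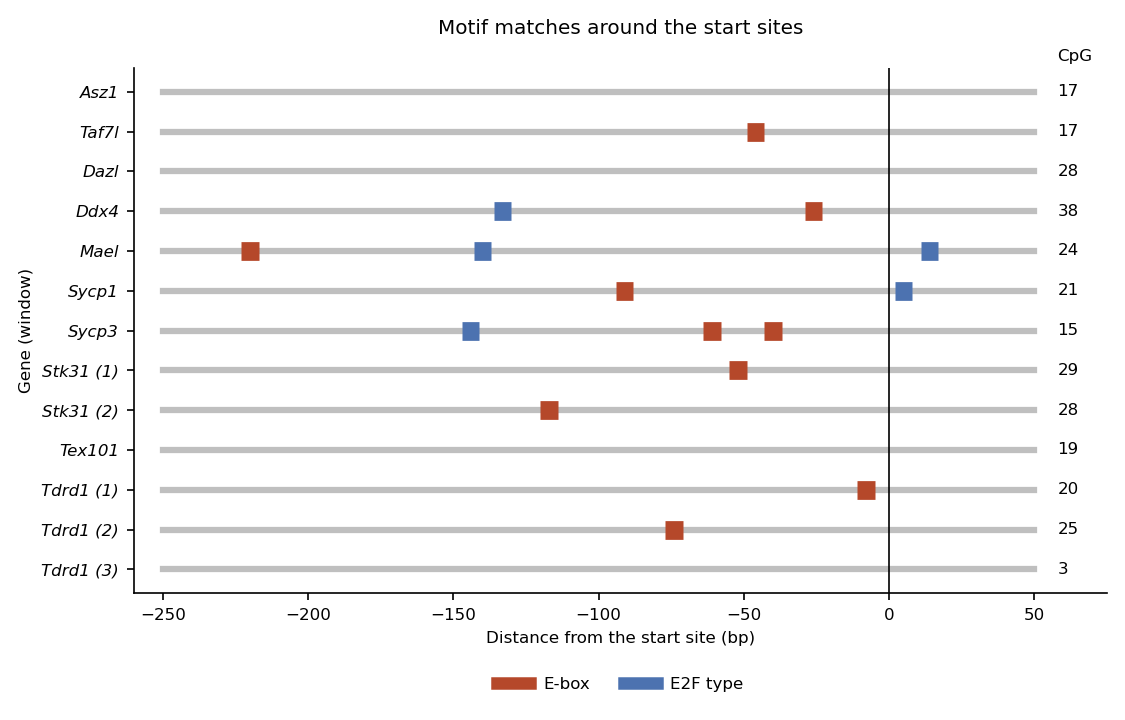
Positions of E-box (CACGTG) and E2F type (TCCCGC or GCGGGA) matches in the 13 RefSeq promoter windows of the 10 genes, by distance in bp from the start site, with the number of CpGs in each window at the right. E-box matches lie in 9 windows of 7 genes, and CpG counts run from 3 to 38.

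All 10 genes were read in all 12 libraries, from 3 counts (Tdrd1 in naive WT replicate 1, Tex101 in naive KO replicate 1) to 7614 (Dazl in naive KO replicate 1). None was thus without a count, though a few counts cannot be told apart from stray reads. Scaled by exon length, the members spanned a wide range. In naive WT, Dazl was highest at 32.3 CPM per kb, above 90.3% of the 18134 genes tested, and Tdrd1 lowest at 0.0607 CPM per kb, above 8.14%. In EpiLC WT, Mael was highest at 28.5 CPM per kb, above 89%, and Asz1 lowest at 0.314, above 22%. In both conditions the label of silenced genes thus covers some that were plainly expressed as RNA in these cells, Dazl in naive culture and Mael in EpiLCs most of all.

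**Figure D2:**
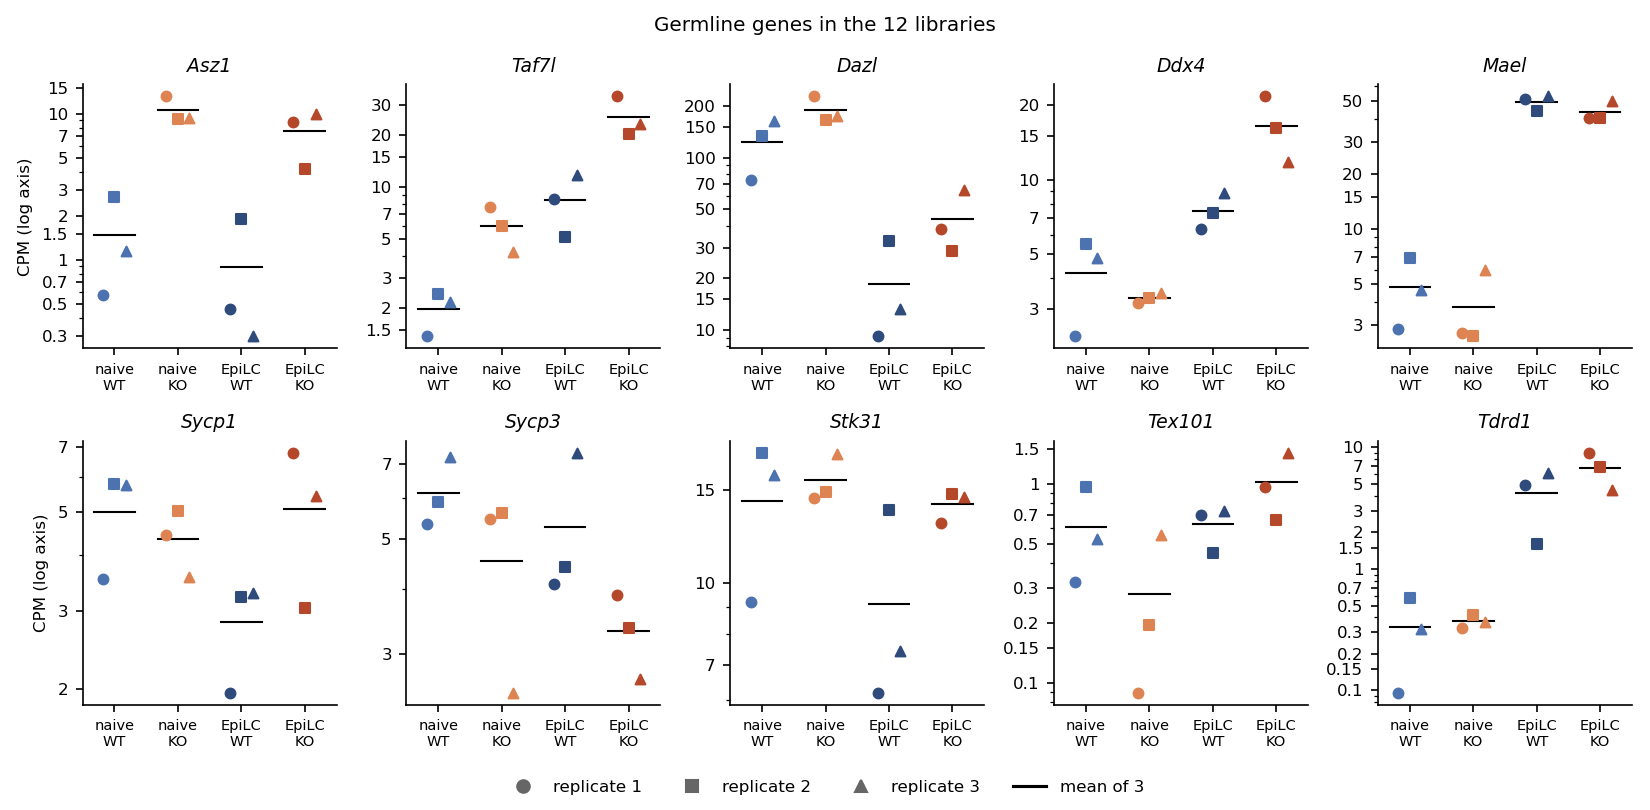
CPM (log axis) of each germline gene in each library, by group, with marker shapes for the replicate number in the labels and a line at the mean of 3. Asz1 and Taf7l do not overlap between genotypes and lie higher in KO in both conditions, Mael and Tdrd1 lie higher in every EpiLC library than in every naive one, and Dazl lies lower in every EpiLC library.

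Loss of Pcbp1 in naive cells went with a rise of Asz1 and Taf7l and with no called change in the other 8 members. In EpiLCs the same pair rose by about as much, and Ddx4 rose with them. No member was called lower in either condition. The 2 of 10 members called in naive cells compare with 9.24% of all genes tested (4.25% higher, 4.99% lower), and the 3 of 10 in EpiLCs with 15.0% (7.14% higher, 7.90% lower). The groups did not overlap, with KO higher, for 3 members in naive cells and 3 in EpiLCs, and with KO lower for none and 1; over all genes these shares were 15.1% and 16.1% higher and 15.3% and 17.2% lower. The median log2 fold change of KO over WT was -0.04 over the members in naive cells and 0.77 in EpiLCs, against 0.00 over all genes in both. At an unadjusted p under 0.05 there were 2 members in naive cells and 6 in EpiLCs, all higher in KO. Adjusted p-values come from edgeR's quasi-likelihood test with Benjamini-Hochberg adjustment over 18134 genes, and each ± beside a log2 fold change is a standard error.

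Asz1, an ankyrin repeat protein of the mitochondrial cement of germ cells where piRNAs are made, had the largest difference between genotypes. Its raw counts were 18, 84 and 43 in naive WT against 441, 332 and 303 in naive KO (replicates 1, 2 and 3, as in every list of values that follows). In EpiLC WT they were 17, 51 and 9, and in EpiLC KO 382, 157 and 355. Every KO library was above every WT library in both conditions, by mean levels of 10.6 ± 2.21 against 1.47 ± 1.1 CPM in naive cells and 7.64 ± 3.08 against 0.887 ± 0.885 CPM in EpiLCs. Asz1 rose by 2.85 ± 0.63 on the log2 scale in naive cells (7.19-fold, adjusted p = 0.0162) and by 3.14 ± 0.66 in EpiLCs (8.81-fold, adjusted p = 0.00865). WT libraries differed widely among themselves, 4.67-fold in naive culture and 6.37-fold in EpiLCs, while the naive KO libraries differed 1.42-fold. EpiLC WT replicate 2 was the highest of its group, and without it the EpiLC difference was 4.30 (adjusted p = 0.00152). Without naive WT replicate 2, likewise the highest of its group, the naive difference was 3.56 (0.0111). The naive call ended without naive WT replicate 1 (log2 fold change 2.44, adjusted p = 0.0559), WT replicate 3 (2.66, 0.0713) or KO replicate 1 (2.64, 0.0634), and with no filter on low counts (0.0763); the fold change stayed above 5-fold in each.

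The other members of the piRNA pathway were not called in naive cells. Ddx4 (the VASA homologue), an RNA helicase of germ granules, had counts of 73, 172 and 182 in naive WT against 107, 120 and 114 in naive KO, which overlapped (log2 fold change -0.34 ± 0.31, adjusted p = 0.55). In EpiLCs its counts were 236, 197 and 265 in WT against 944, 611 and 417 in KO, with all KO libraries above all WT libraries. Ddx4 rose by 1.14 ± 0.30 there (2.2-fold, adjusted p = 0.0235). That call ended without EpiLC WT replicate 1 (adjusted p = 0.0821), and likewise when KO replicate 1 (0.109) or KO replicate 2 (0.0536) of the EpiLCs was left out.

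Mael, a protein of the germ granule and of piRNA-guided silencing, was the member closest between genotypes in EpiLCs. Its counts there were 1909, 1182 and 1590 in WT against 1758, 1517 and 1763 in KO, and the groups overlapped (log2 fold change -0.19 ± 0.31, 95% interval -0.85 to 0.47). In naive cells they were 89, 217 and 174 in WT and 91, 93 and 193 in KO, also overlapping (-0.36 ± 0.33, adjusted p = 0.559). Tdrd1, a Tudor protein that binds PIWI proteins through their methylated arginines, had only 3, 18 and 12 counts in naive WT against 11, 15 and 12 in naive KO, and the log2 fold change of 0.17 ± 0.63 had a 95% interval of -1.20 to 1.54 at this depth. In EpiLCs Tdrd1 counts were 183, 43 and 184 in WT against 394, 260 and 158 in KO. The low WT value was replicate 2, the groups overlapped, and the log2 fold change was 0.68 ± 0.47 (adjusted p = 0.365).

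Taf7l, the X-linked germ cell paralogue of the TFIID subunit TAF7, had counts of 43, 75 and 82 in naive WT against 258, 216 and 137 in naive KO. In EpiLCs the counts were 317, 138 and 353 in WT against 1462, 768 and 826 in KO. KO libraries lay above WT libraries in both conditions without overlap. Taf7l rose by 1.58 ± 0.34 in naive cells (3-fold, adjusted p = 0.0133) and by 1.6 ± 0.32 in EpiLCs (3.03-fold, adjusted p = 0.00686). The naive call was lost without WT replicate 1 (adjusted p = 0.056) and without KO replicate 1 (0.0679), and the EpiLC call stood in every alternative run. Of the 23 tested genes within 1 Mb of Taf7l, 3 were higher and none lower in naive KO, and 6 were higher and none lower in EpiLC KO, with median log2 fold changes of 0.18 and 0.34. Whether those neighbours and Taf7l moved for a common reason was not tested. For comparison, the 10 tested neighbours of Asz1 had median changes of -0.36 and -0.20, with 1 lower in naive KO and none called in EpiLCs. Calls near other members also leaned one way. Of 19 neighbours of Mael, 3 and 2 were higher in naive and EpiLC KO, and of 16 of Ddx4, 1 and 2, with none lower. Of 60 neighbours of Tex101, 1 was higher in each condition and 5 and 9 were lower.

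Dazl, an RNA-binding regulator of translation in germ cells, was the most abundant member in naive culture, with 2324, 4154 and 6144 counts in WT and 7614, 5931 and 5649 in KO. Scaled to CPM, all naive KO libraries were above all naive WT libraries, the nearest by little (226, 165 and 174 against 74.5, 133 and 163 CPM), yet the log2 fold change of 0.61 ± 0.42 did not pass the test (adjusted p = 0.419). Groups that stood apart in this direction made up 15.1% of all genes in naive cells. In EpiLCs the counts were 341, 877 and 399 in WT against 1679, 1087 and 2294 in KO, and WT replicate 2 was inside the KO range (9.16, 32.8 and 13.3 against 38.6, 28.7 and 64.6 CPM). The log2 fold change was 1.26 ± 0.44 (adjusted p = 0.0711). Without EpiLC WT replicate 2 it was 1.97 and passed (adjusted p = 0.00562), and with DESeq2 it passed on all libraries (adjusted p = 0.0204).

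The synaptonemal complex genes differed from each other. Sycp1, its transverse filament protein, had counts of 110, 180 and 216 in naive WT, 149, 180 and 116 in naive KO, 73, 86 and 99 in EpiLC WT, then 296, 115 and 193 in EpiLC KO. Groups overlapped in both conditions, and the log2 fold changes of KO over WT were -0.21 ± 0.32 in naive cells and 0.86 ± 0.33 in EpiLCs (adjusted p = 0.0992). Without EpiLC KO replicate 2, the lowest KO library, Sycp1 passed in EpiLCs (1.12, adjusted p = 0.0436). Sycp3, of the axial and lateral elements, had counts of 167, 184 and 271 and 184, 202 and 82 in naive WT and KO, and of 152, 118 and 221 and 170, 127 and 95 in EpiLC WT and KO. It was the member with the lowest values in EpiLC KO against WT, with all KO libraries below all WT libraries (3.9, 3.36 and 2.68 against 4.08, 4.41 and 7.35 CPM), but the log2 fold change of -0.67 ± 0.33 did not pass (adjusted p = 0.189), and groups apart in that direction made up 17.2% of all genes. Sycp3 values carry a limit of the counting: 660 bp of its exons (52.2% of their length) lie over exons of Chpt1 on the opposite strand. The counting command in the file header sets no strand or overlap option, and by the default of that program reads are taken without regard to strand and a read over both genes is counted for neither, so Sycp3 values rest mainly on the rest of its exons. Chpt1 itself was at 18.6 ± 2.53 CPM in naive WT, 17.8 ± 2.25 in naive KO, 4.2 ± 0.796 in EpiLC WT, then 6.3 ± 1.43 in EpiLC KO, with a log2 fold change of KO over WT in EpiLCs of 0.59 ± 0.21 (adjusted p = 0.0791). Its part in the Sycp3 values was not tested. Sycp1 shares 5.47% of its 50-base words with transcripts of other genes, a pseudogene of its own among them.

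Stk31, a Tudor domain protein with a kinase-like part found in testis, had counts of 288, 551 and 604 in naive WT against 488, 534 and 572 in naive KO (log2 fold change 0.13 ± 0.29). In EpiLCs its CPM were 6.21, 13.8 and 7.45 in WT against 13, 14.8 and 14.5 in KO, with WT replicate 2 level with KO. The log2 fold change there was 0.63 ± 0.29 (adjusted p = 0.166), and without EpiLC WT replicate 2 it was 1.05 and passed (adjusted p = 0.0153). Tex101, a surface glycoprotein of germ cells, was close to the floor, with 10, 30 and 20 and 3, 7 and 18 counts in naive WT and KO and 26, 12 and 22 and 42, 25 and 51 in EpiLC WT and KO. Its log2 fold changes of -1.11 ± 0.59 and 0.69 ± 0.53 had wide intervals (-2.39 to 0.17 and -0.46 to 1.84) that hold 0.

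**Figure D3:**
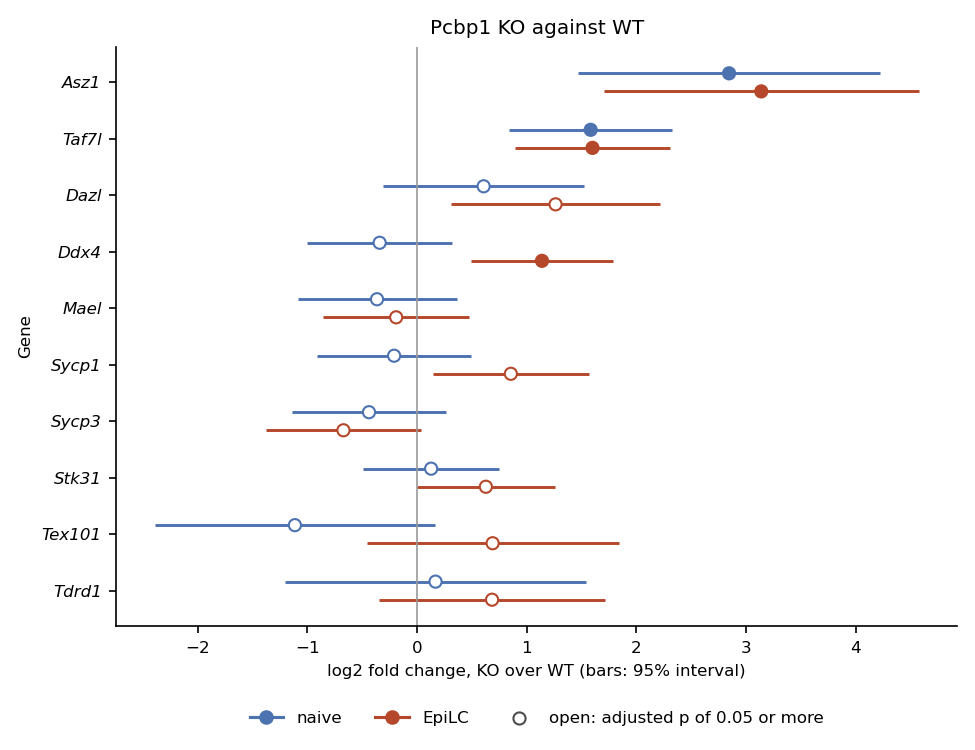
Log2 fold change of KO over WT for each germline gene in naive cells and EpiLCs, with 95% intervals from the edgeR fit of all 12 libraries; filled points have an adjusted p under 0.05. Asz1 and Taf7l are filled in both conditions and Ddx4 in EpiLCs, and the intervals of the other members in naive cells hold 0.

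With EpiLC WT replicate 2 left out, 5 of 10 members were called in EpiLCs, Dazl and Stk31 besides Asz1, Taf7l and Ddx4, against 16.6% of the 18869 genes tested without it. Markers of other cell types also moved in EpiLC KO, where 7.14% of all genes were called higher (4.25% in naive KO). Of 11 endoderm markers tested (of 14 listed), 8 rose, and their summed level was 96.1 to 135 CPM in EpiLC KO against 27.1 to 52.8 in EpiLC WT, where Ttr was at 0. In naive cells the sums were 338 to 590.3 CPM in KO and 243 to 287 in WT, with 2 markers called higher. Of 10 tested markers of 2-cell-like cells (of 17 in the table), 4 rose in EpiLC KO. Their summed level was 21.3, 93.8 and 6.22 CPM in the 3 EpiLC KO libraries and 5.11, 1.83 and 10.8 in EpiLC WT, with Tdpoz1 at 0 in EpiLC WT. It was 1.86 to 8.28 CPM in naive WT and 0.83 to 3.54 in naive KO, with Tcstv1 at 0 in both and Tdpoz1 at 0 in naive KO. From naive to EpiLC all 10 tested rose in KO and none was called in WT (edgeR, with 1 at an unadjusted p under 0.05). Over all genes 27.0% rose in KO and 26.3% in WT. The filter on low counts can keep a gene through the group in which it is high. Rises into EpiLC KO among the tested 2-cell-like markers can thus be partly set by the filter. EpiLC KO replicate 2, where 2-cell-like markers were highest, was the lowest EpiLC KO library for Asz1, Taf7l, Dazl, Mael, Sycp1 and Tex101, the middle one for Ddx4, Sycp3 and Tdrd1, and the highest for Stk31. Fibroblast and feeder markers summed to at most 40.0 CPM in any library, with S100a4 at 0 in every library and Dcn and Twist2 also at 0 in naive KO; 1 of 5 tested was called higher in each condition of KO. Among testis markers the spermatid genes Prm1, Prm2, Tnp1 and Tnp2 had at most 8 counts in any library, and Wt1 took 65.8 to 95.5 of the 77.2 to 107 CPM of the list in EpiLCs; none of the 4 tested was called between genotypes in edgeR (1 in naive cells and 0 in EpiLCs at an unadjusted p under 0.05). The part of any of these cell types in the values of the members was not tested.

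The second pair of comparisons asked how the members changed as naive cells became EpiLCs, in each genotype. They did not fall together. In WT, Mael, Tdrd1, Taf7l and Ddx4 rose and Dazl and Sycp1 fell; in KO, Mael, Tdrd1, Ddx4, Taf7l and Tex101 rose and Dazl fell. These 6 of 10 called members in each genotype compare with 52.6% of all genes in WT and 55.1% in KO, so the count is near the background. By direction, 4 rose and 2 fell in WT (26.3% and 26.3% of all genes) and 5 rose and 1 fell in KO (27.0% and 28.0%). The same numbers of members had groups that did not overlap, against 29.3% higher and 29.9% lower in WT and 31.4% higher and 32.9% lower in KO. The transition in WT shares the naive WT and EpiLC WT libraries with the genotype comparisons, and that in KO the KO libraries.

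**Figure D4:**
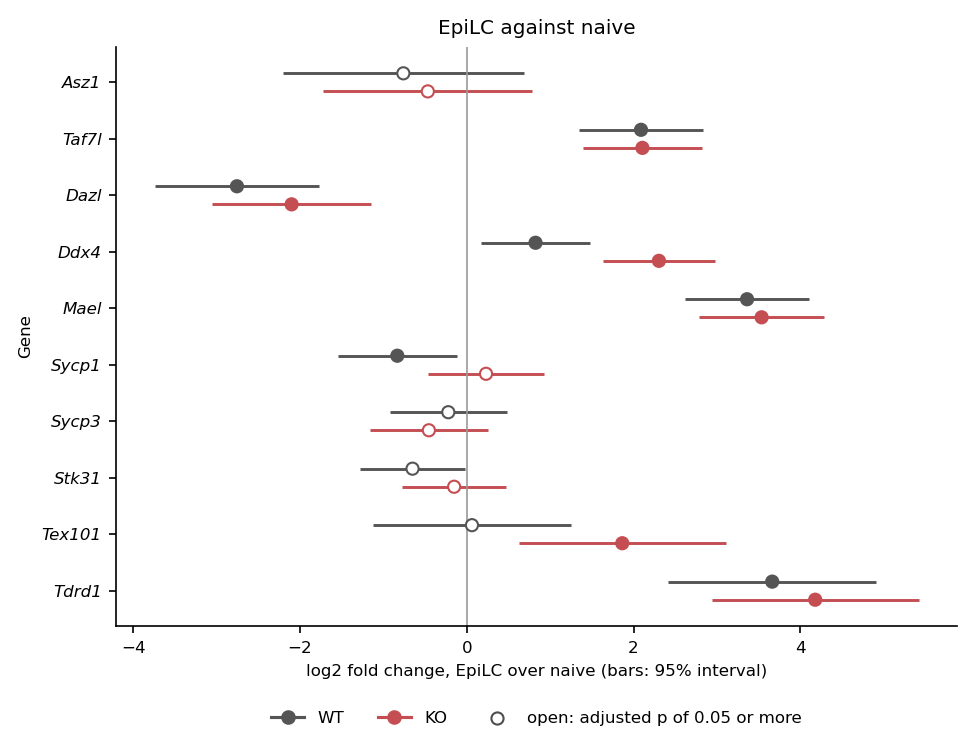
Log2 fold change of EpiLC over naive for each germline gene in WT and KO, with 95% intervals from the same fit; filled points have an adjusted p under 0.05. Mael and Tdrd1 rose and Dazl fell in both genotypes, and the interval of Ddx4 in KO lies above that in WT.

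Mael rose from 4.81 ± 2.06 to 49.4 ± 4.65 CPM in WT (3.36 ± 0.34 on the log2 scale, 10.3-fold, adjusted p = 6.04e-06) and from 3.74 ± 1.9 to 43.4 ± 5.44 CPM in KO (3.54 ± 0.35, 11.6-fold, adjusted p = 3.73e-06). Its EpiLC libraries differed no more than 1.24-fold within a group. Tdrd1 rose from the lowest level of any member, 0.331 ± 0.241 CPM, to 4.21 ± 2.34 CPM in WT (3.66 ± 0.58, adjusted p = 0.00018; 4.26 without naive WT replicate 2). In KO it rose from 0.371 ± 0.0456 to 6.79 ± 2.3 CPM (4.18 ± 0.57, adjusted p = 5.38e-05). Both genes had every EpiLC library above every naive library, and EpiLC WT replicate 2, which kept naive markers, had the lowest EpiLC value of each in WT.

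Taf7l rose by nearly the same factor in both genotypes, 4.26-fold in WT and 4.31-fold in KO (adjusted p = 0.000256 and 0.000156). Genotype and condition thus gave an order of EpiLC KO (25.7 ± 6.97 CPM), EpiLC WT (8.47 ± 3.29), naive KO (5.97 ± 1.73) and naive WT (1.99 ± 0.539). EpiLC WT and naive KO overlapped in it. For Asz1 the order was naive KO, EpiLC KO, naive WT and EpiLC WT. Its change from naive to EpiLC was -0.76 ± 0.66 in WT (adjusted p = 0.356) and -0.47 ± 0.58 in KO (0.517), and naive and EpiLC libraries overlapped in each genotype. Without EpiLC WT replicate 2, however, Asz1 fell by 1.93 on the log2 scale in WT (adjusted p = 0.0232).

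Dazl fell in both genotypes, from 124 ± 45.1 to 18.4 ± 12.6 CPM in WT (by 2.76 ± 0.46 on the log2 scale, adjusted p = 0.000283) and from 188 ± 33 to 44 ± 18.5 CPM in KO (by 2.10 ± 0.44, adjusted p = 0.0014). Without EpiLC WT replicate 2 the WT change was -3.47 (adjusted p = 1.97e-05). The EpiLC KO level was 2.4 times that of EpiLC WT and still below every naive library. Ddx4 rose in WT from 4.23 ± 1.67 to 7.5 ± 1.24 CPM (0.83 ± 0.30, adjusted p = 0.0355) and in KO from 3.34 ± 0.164 to 16.5 ± 4.98 CPM (2.30 ± 0.31, adjusted p = 4.71e-05). The rise in WT was lost without naive WT replicate 1 (adjusted p = 0.13), naive WT replicate 3 (0.0533), EpiLC WT replicate 2 (0.0521) or EpiLC WT replicate 3 (0.116).

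Sycp1 fell in WT by 0.83 ± 0.33 (adjusted p = 0.0492), a call that ended in 5 of the 6 leave-one-out fits of that comparison, and its change in KO was 0.23 ± 0.32 (0.568). Tex101 rose in KO from 0.279 ± 0.243 to 1.02 ± 0.391 CPM (1.87 ± 0.57, adjusted p = 0.0143), on counts of at most 51, and was no longer called once naive KO replicate 1 was left out (adjusted p = 0.0543), naive KO replicate 2 (0.0518) or EpiLC KO replicate 3 (0.0557). Without naive KO replicate 3 the rise was 2.83. The Tex101 change in WT was 0.06 ± 0.55. Stk31 had a change of -0.65 ± 0.29 in WT (adjusted p = 0.0766, and 0.00708 with the replicate number, taken as the clone, as a block) and of -0.15 ± 0.29 in KO. Sycp3 was nearly level in both genotypes (-0.22 ± 0.32 in WT, -0.45 ± 0.33 in KO). Without EpiLC WT replicate 2, 6 members were called in the WT transition, with Asz1 and Stk31 in and Ddx4 and Sycp1 out, against 52.9% of genes.

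Whether genotype changed the transition was tested by the interaction. No member passed it in edgeR, against 0.336% of all genes (0.226% higher, 0.110% lower), with 3 members at an unadjusted p under 0.05 and 1 called by DESeq2. That one was Ddx4, whose rise was larger in KO by 1.48 ± 0.43 on the log2 scale (adjusted p = 0.175 in edgeR; adjusted p = 0.0274 in DESeq2, and 0.0437 in edgeR with no filter on low counts). Sycp1 (1.06 ± 0.46, adjusted p = 0.371) and Tex101 (1.80 ± 0.79, 0.379) were the other two. The interaction was near 0 for Taf7l (0.02 ± 0.50) and for Asz1 (0.29 ± 0.87), with a 95% interval for Asz1 of -1.6 to 2.19 that still allows a change of several fold.

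The members varied among themselves and between libraries of a group. Over the 12 libraries, log2 CPM of Mael and Tdrd1 had a Pearson r of 0.93, Ddx4 and Tdrd1 0.92 and Taf7l and Tdrd1 0.87, while Dazl and Mael had -0.85 and Dazl and Tdrd1 -0.78; the median over the 45 pairs was 0.04. These values describe 12 libraries that share 2 conditions. Within groups, with group means removed, the r was 0.48 for Mael and Tdrd1, 0.74 for Ddx4 and Tdrd1, 0.77 for Taf7l and Tdrd1, 0.17 for Dazl and Mael and -0.32 for Dazl and Tdrd1, with a median of 0.32. The sign for Dazl and Mael thus turned once the group means were removed. Naive WT replicate 1 was below its group mean for all 10 members, by a median of 0.65 on the log2 scale, and replicate 2 was above it for 9. The genes most like the mean profile of the members were Zbtb18 (Pearson r 0.93 over 12 libraries), Myef2 (0.89), Ptpn20 (0.88), Myt1l (0.88) and Atg5 (0.88). All 5 had their highest mean in EpiLC KO, where the profile that picked them was itself highest, so this follows from the choice. Ptpn20 and Myt1l were low throughout, with highest group means of 1.45 and 0.906 CPM.

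Other genes of the same pathways, from fixed lists, were compared in the same fit. The shares of all genes to set beside each list were 4.25% higher and 4.99% lower in naive KO. In EpiLC KO they were 7.14% higher and 7.90% lower. Of 17 tested genes of the piRNA pathway besides the members, 1 rose and 1 fell in naive KO, and 3 rose and 2 fell in EpiLC KO. Gtsf1, a zinc finger partner of PIWI proteins, rose in naive KO by 1.09 ± 0.22 (adjusted p = 0.0101), from 4.74, 7.4 and 5.26 to 15.5, 12.4 and 9.1 CPM, without overlap. The naive call ended without naive WT replicate 3 (adjusted p = 0.0533) or naive KO replicate 1 (0.0599). Gtsf1 was also called higher in EpiLC KO (0.80 ± 0.22, adjusted p = 0.0287 in edgeR), at 18.7, 14.9 and 18.2 CPM against 9.32, 10.5 and 9.94 in EpiLC WT. In EpiLC KO, Henmt1, which methylates piRNA ends, rose from a mean of 0.197 to 0.673 CPM (1.73 ± 0.45, adjusted p = 0.0229), and Tdrkh, a mitochondrial partner of PIWI proteins, rose by 1.26 ± 0.33 (0.0241). Tdrd12 and Pnldc1, which trims piRNA ends, fell (-0.74 and -0.66, adjusted p = 0.00472 and 0.0092). Henmt1 lost its call without any 1 of the 6 EpiLC libraries, the highest adjusted p being 0.08. Tdrkh lost its call in 5 of the 6 fits that left out 1 library, all but that without EpiLC KO replicate 3 (adjusted p 0.0515 to 0.109 where lost).

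In the transition, 7 piRNA genes rose and none fell in WT, and 9 rose and 4 fell in KO. Of all genes, 26.3% rose and 26.3% fell in WT, and 27.0% rose and 28.0% fell in KO. These shares also stand beside the lists that follow. Piwil4, a nuclear PIWI protein, rose by 4.48 ± 0.47 in WT and 4.24 ± 0.43 in KO, and Tdrd5 by 3.56 ± 0.36 and 3.83 ± 0.38, 2 genes that rose alongside Mael and Tdrd1. Of 26 tested meiotic chromosome genes besides the members, none rose and 2 fell in naive KO, and 2 rose and 2 fell in EpiLC KO. Tex15 rose in EpiLC KO from 2.85, 3.7 and 2.93 to 7.9, 5.87 and 13.9 CPM (1.55 ± 0.33, adjusted p = 0.0083). Stag3, a meiotic cohesin subunit, fell in naive KO by 0.76 ± 0.13 (0.00378) and in EpiLC KO by 1.04 ± 0.13 (0.000492). The others called in EpiLC KO were Sycp2, which rose, and Syce2, which fell. Over the alternatives their log2 fold changes were 1.72 to 2.40 and -0.66 to -0.48. The Sycp2 call was lost without EpiLC WT replicate 3 (adjusted p = 0.0501) or EpiLC KO replicate 1 (0.0932). In the transition 8 of these genes rose and 5 fell in WT, and 10 rose and 4 fell in KO.

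Of 26 tested genes of germ cell RNA binding and testis type, 2 rose and 2 fell in naive KO, and 3 rose and 2 fell in EpiLC KO. Rhox5, an X-linked homeobox gene, rose in naive KO from 30, 92.5 and 30.1 to 344, 267 and 232 CPM (2.47 ± 0.42, adjusted p = 0.0037, and 3.19 without naive WT replicate 2). In EpiLCs Rhox5 was near level, at 430 ± 181 CPM in WT and 418 ± 60.3 in KO (-0.04 ± 0.39, adjusted p = 0.961 in edgeR). D1Pas1 rose in EpiLC KO by 1.05 ± 0.27 (0.0213), a call that ended when replicate 3 of WT (0.0695) or of KO (0.0816) was left out, with no filter on low counts (0.0969) and in the fit of the EpiLC libraries alone (0.0556). Tex13b fell in both, by 2.50 ± 0.61 and 2.10 ± 0.60 (0.0249 and 0.0357), but in each condition the call was lost in 5 of the 6 fits that left out 1 library, all but that without WT replicate 1 (adjusted p 0.0502 to 0.0821 in naive cells and 0.0731 to 0.111 in EpiLCs), and with no filter on low counts (0.119 and 0.14). In the transition 8 rose and 3 fell in WT, and 8 rose and 5 fell in KO. Calls in these 3 lists went in both directions in KO against WT. Markers of primordial germ cells did not rise with Asz1 and Taf7l: of 10 tested, none was called in naive KO (edgeR; 1 at an unadjusted p under 0.05), 1 fell in EpiLC KO (Alpl, -0.40 ± 0.11, adjusted p = 0.0263), and 8 fell and 1 rose in the transition in each genotype. The Alpl call was lost without replicate 1 or 2 of either genotype (adjusted p 0.0547 to 0.109) and in the fit of the EpiLC libraries alone (0.108). Kit, among the genes that fell in the transition, fell by 4.85 ± 0.21 in WT.

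Genes of the machinery known to silence such promoters were compared in the same libraries. Ehmt2, the H3K9 methyltransferase G9a, was lower in every KO library, at 86.2, 59.5 and 65.9 CPM in naive KO against 209, 169 and 200.3 in naive WT, and at 55, 46 and 50.1 in EpiLC KO against 187, 182 and 152 in EpiLC WT. It fell by 1.45 ± 0.14 (adjusted p = 0.000176) and by 1.79 ± 0.15 (3.81e-05), and both calls stood in each of the 13 alternatives run. Its partner Ehmt1 was close to level (0.21 ± 0.11 and -0.08 ± 0.11, adjusted p = 0.29 and 0.662). Among the 17 genes listed with DNA and H3K9 methylation, the other called in either condition was Kdm5c (-0.34 ± 0.09 and -0.37 ± 0.09, adjusted p = 0.044 and 0.0219). Kdm5c itself encodes an H3K4 demethylase. The Kdm5c call was lost in 4 of the 6 fits that left out 1 library in naive cells (WT replicate 1 or 3, KO replicate 1 or 2; adjusted p 0.0984 to 0.14) and in the same number, of the same replicate numbers, in EpiLCs (0.0611 to 0.0873). Dnmt1 (-0.13 ± 0.08 and -0.24 ± 0.08), Uhrf1 (-0.35 ± 0.14 and -0.30 ± 0.14), Setdb1 (-0.15 ± 0.13 and -0.13 ± 0.13) and Dnmt3b (0.52 ± 0.27 and -0.31 ± 0.26) did not pass.

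Of 16 genes of PRC1.6 and its partners, Wdr5 fell in both conditions (-0.73 ± 0.08 and -0.46 ± 0.08, adjusted p = 0.00034 and 0.00367) and Rnf2 rose in EpiLC KO (0.61 ± 0.16, 0.0229). The Rnf2 call was lost without EpiLC WT replicate 1, EpiLC WT replicate 3 or EpiLC KO replicate 1 (adjusted p 0.0603 to 0.104) and in the fit of the EpiLC libraries alone (0.0678). The subunits that set its binding, Pcgf6 (-0.13 ± 0.12 and 0.02 ± 0.12), Mga (-0.12 ± 0.19 and -0.31 ± 0.19), Max (0.00 ± 0.11 and 0.15 ± 0.11), E2f6 (-0.16 ± 0.15 and -0.07 ± 0.15) and L3mbtl2 (-0.04 ± 0.17 and -0.45 ± 0.17), did not pass. In the transition in WT, Dnmt3a rose by 6.29 ± 0.22, Dnmt3b by 4.98 ± 0.31 and Dnmt3l by 6.64 ± 0.62, and in KO by 5.70 ± 0.21, 4.15 ± 0.30 and 6.56 ± 0.62 (Dnmt3l 7.31 in WT without its naive replicate 2, 7.40 in KO without its naive replicate 3). In the same cultures Mael, Tdrd1, Taf7l and Ddx4 rose and Dazl fell in both genotypes, Sycp1 fell in WT and Tex101 rose in KO. Whether the levels of any of these silencing genes bear on those of the members was not tested.

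**Figure D5:**
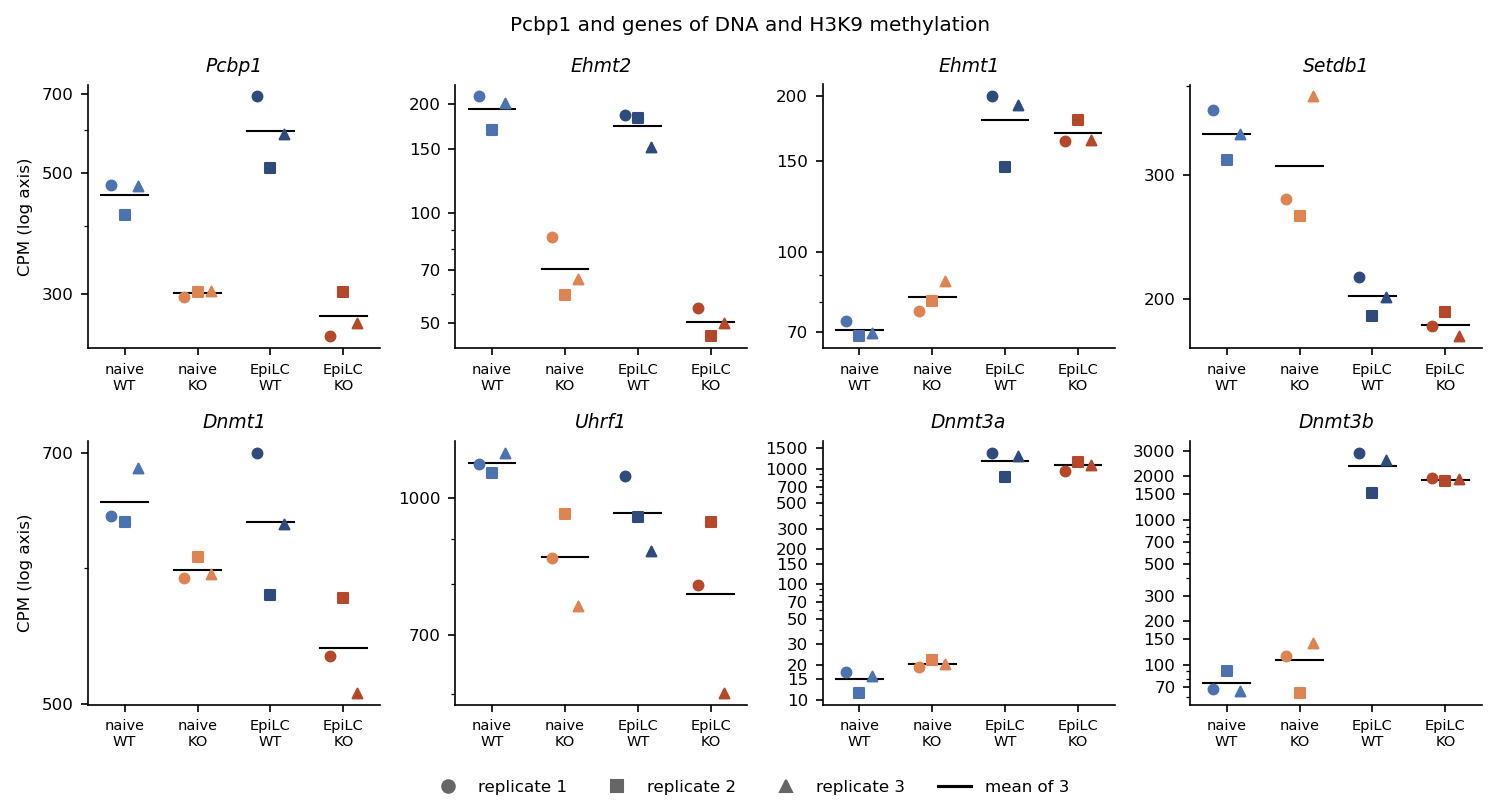
CPM (log axis) of Pcbp1 and 7 genes of DNA and H3K9 methylation in each library, by group, with marker shapes for the replicate number and a line at the mean of 3. Ehmt2 and Pcbp1 lie lower in KO in both conditions, with no overlap between genotypes, and Dnmt3a and Dnmt3b lie higher in every EpiLC library than in every naive one.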

How the data were processed

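Poly(A) RNA was sequenced from stranded TruSeq libraries, per the labels' protocols. The deposited table holds whole-number counts per gene, made by the authors with featureCounts 2.0.1 on GENCODE vM25 genes (GRCm38), per the file headers; fastp, FastQC, STAR and DESeq2 are named in the submitters' processing notes. The command in the header sets no strand, overlap or multi-mapping option, so by the program's default reads over exons of more than 1 gene on either strand are counted for none. Columns of counts left unused numbered 0, and 346 genes without a symbol held at most 0.0312% of a library.

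Counts were tested in edgeR 4.0.16 (R 4.3.3, limma 3.58.1): TMM scaling, filterByExpr with a minimum count of 10 and total of 15 (18134 genes kept), robust quasi-likelihood tests of 4 group means over 12 libraries with 8 residual degrees of freedom, and Benjamini-Hochberg adjustment over all genes kept, with a threshold of 0.05. The procedure was tested on simulated data. DESeq2 1.42.0 and other scalings, filters, sample sets, blocks and left-out libraries were alternatives. Totals of 27146744 to 42204511 counts per library limit the precision for genes of a few counts. Values per kb divide CPM by the deposited exon length.

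The members and lists were chosen with earlier results of these data known. All members, the 5 genes most correlated with the mean member profile, and Pcbp1 were named. Called genes of the lists were named mainly from the up to 4 per list and comparison with the smallest adjusted p. Not all of these are given. Silencing genes named without a call, and the marker genes named at 0 or by count, were chosen after their values were seen. Libraries with the same genotype and replicate number deviated together across conditions (Pearson r over genes of 0.15 to 0.26 in all 6 pairs). The labels describe clones but tie no replicate number to a clone. An alternative took the replicate number within a genotype as the clone and used it as a block for the transition and interaction. Numbers did not pair WT with KO.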

Additional observations from a re-analysis of the deposited data

Results flagged for a closer look

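Tdrkh, a gene of the piRNA pathway that is not among the 10, was the 1 gene in the germline and silencing lists whose transition differed between genotypes by a test of the difference itself. Its CPM were 0.609, 1.15 and 0.823 in naive WT, 0.267, 0.167 and 0.308 in naive KO, 2.5, 2.02 and 2.56 in EpiLC WT, then 7.53, 6.13 and 3.32 in EpiLC KO. KO was below WT in every naive library and above it in every EpiLC library. The naive values rest on few reads, with raw counts of 19 to 36 in WT and 6 to 10 in KO. In EpiLCs the counts were 54 to 93 in WT and 118 to 328 in KO. The interaction was 3.05 on the log2 scale (adjusted p = 0.0388, edgeR's quasi-likelihood test), and leaving out single libraries gave values of 2.79 to 3.32 with adjusted p of 0.0272 to 0.111 for Tdrkh. The call ended in 8 of those 12 fits: without replicate 2 or 3 of naive WT, 1 or 2 of naive KO, 1 or 3 of EpiLC WT, or 1 or 2 of EpiLC KO.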

How the results depend on the processing

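Of 700 alternative values for the members, 644 kept their direction and their side of the threshold, 27 lost a call, 10 gained one and 19 changed sign, none of the last from a called value. With no filter on low counts 1 member was called in naive KO and 1 in the interaction, where Taf7l became -0.0065; DESeq2 called 1 in the interaction. Leaving out single libraries gave 0 to 2 called members in naive KO (0 when WT replicate 1 or KO replicate 1 of the naive cells was left out, 1 without naive WT replicate 3), 2 to 5 in EpiLC KO (5 without EpiLC WT replicate 2), 4 to 6 in the WT transition, 5 to 6 in the KO transition and 0 in the interaction.

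Over the same left-out libraries the uncalled log2 values that changed sign ranged from -0.13 to 0.27 for Stk31 and -0.28 to 0.75 for Tdrd1 in naive KO, -0.25 to 0.53 for Tex101 in the WT transition and -0.032 to 0.50 for Sycp1 in the KO transition. In the interaction they ranged from -0.41 to 1.46 for Asz1, -0.24 to 0.32 for Taf7l, -0.14 to 0.72 for Mael, -0.057 to 0.98 for Tdrd1 and -0.47 to 0.079 for Sycp3. The cause was not tested.

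With the replicate number as a block, 1 member was called in naive KO (Asz1) and 1 in EpiLC KO (Taf7l), with 2 residual degrees of freedom; same-numbered WT and KO libraries correlated from -0.27 to 0.0037, so they share only a number. With the clone, read from the replicate number within a genotype, as a block, 7 members were called in the WT transition (Stk31 in addition). There were 6 in the KO transition and 0 in the interaction, and no other member call changed. Over all genes, the interaction count was 61, and 516 with DESeq2, 241 with no filter, 230 with the clone block and 3 to 157 with a library left out; the naive KO count was 1676, and 2516 with DESeq2, 920 with the block and 677 at the lowest with a library left out; the EpiLC KO count was 2726, and 898 with the block and 1368 at the lowest with a library left out. Counts of at most 84 in a library (Tex101, naive Tdrd1, WT Asz1 and, outside the members, naive Tdrkh) limit what depth can show.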
